A study of Mus musculus with 28 samples.

Results

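Secondary spermatocytes of *Csmd1* knockout mice were compared with those of wildtype mice by RNA-seq, in 5 of the 28 libraries used here. Members of the comparison were found by the stage and genotype in the sample labels: 3 libraries came from knockout mice 286, 544 and 550 and 2 from wildtype mice 178 and 648, with 1 library per mouse. The study asked what a loss of CSMD1, a large transmembrane protein with complement-regulatory domains, does to the gonads. Male germ cells were stained with the DNA dye Hoechst and sorted into stages from dissociated testes, so each library holds a gated population and not a single purified cell type.

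The knockout is constitutive. A lacZ and neomycin cassette replaces exon 1 and part of the adjoining intron, so every cell of the animal carries the change and the control mice carry none of it. The sample labels give the strain of all 5 mice as C57BL/6, whereas the study's methods describe a mixed background of 129SvEvBrd and C57BL/6. By these methods the littermate tissues compared came from this original colony, and a later backcross was used for histology and immunofluorescence. The methods give a single age, shortly after sexual maturity, for the males used for sorting, and the sources used here do not list the age of mice 286, 544, 550 and 648 one by one. Knockout and wildtype mice were siblings by the methods, bred from heterozygous parents, but which of the 5 mice share a litter is not given there.

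A secondary spermatocyte is the short-lived cell between the first and the second meiotic division. It carries transcripts made during meiotic prophase, the machinery of the divisions, and the first transcripts of the spermatid programme that follows. Chromatin in the spermatid is later compacted by transition proteins and protamines, and the testis around these cells holds Sertoli cells, which nurse the germ cells, hormone-making Leydig cells, peritubular cells and macrophages.

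The level of a gene is the sum of its transcripts in RPKM, which scales reads by transcript length and by the mapped reads of the library, as deposited. Differences are knockout minus wildtype on quantile-normalised log2(RPKM + 0.1), with the standard error (SE) from limma. A gene is called above where all 3 knockout values exceed both wildtype values on that scale, and below where all 3 lie under both. The gap is the log2 distance between the nearest knockout and wildtype values. With 3 libraries against 2 there are 10 arrangements, so the smallest two-sided exact permutation p is 0.1.

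Of 23140 genes tested, 2279 (9.85%) were above and 3039 (13.1%) were below. Counts within gene lists are to be read beside these shares. On the values as deposited, without quantile normalisation, the split turned to 3797 above (16.4%) and 1869 below (8.08%), and 2072 genes (8.95%) were above and 1584 (6.85%) below on both scales. limma called 0 genes higher and 0 lower at an adjusted p of 0.05, against 752 higher (3.25%) and 626 lower (2.71%) at an unadjusted p under 0.05, and its smallest adjusted p was 0.202. No gene therefore passed the test. What follows gives levels, order and size, and a gene is called above or below by order alone. Most gaps were narrow: the median was 0.31 for genes above and 0.25 for genes below, and 204 genes above and 122 below had a gap of at least 1.

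Depth, estimated from the RPKM worth of 1 read, ran from 44549037 mapped reads in knockout 550 to 61675508 in wildtype 648. All 3 knockout libraries were shallower than both wildtype libraries. Genes above 0 numbered 25233, 28049 and 29999 in knockout 286, 544 and 550 and 24328 and 24034 in wildtype 178 and 648. Across genes, the log2 values of knockout 544 and 550 correlated most closely (Pearson 0.965) and those of knockout 550 and wildtype 648 least (0.889), as a description over genes, which are not replicates. Knockout 286 and wildtype 178 lack a value for the same transcripts, knockout 544 and 550 for another set, and wildtype 648 for a further set. Outside 286 and 178, genotype and these sets therefore cannot be told apart. The difference of 286 from 178 is given where it bears on a result. *Csmd1* itself stood at 0.691, 2.76 and 2.33 RPKM in knockout 286, 544 and 550 and at 0.713 and 0.093 RPKM in wildtype 178 and 648 (difference 1.74, SE 0.82, limma adjusted p = 0.747). These are sums over whole transcripts and not values per exon, so the loss of the deleted exon cannot be read from them and they do not check the labels. In knockout testes the study reports fewer *Csmd1* reads over most exons and more over the last exons. The sums given here cannot tell these parts of the gene apart.

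The protein-coding genes with the widest gaps included cell-surface, signalling and RNA-binding proteins above, and receptors, channels and transcription factors below. Among the genes above, those that had at least 1 RPKM in the mean of the knockout libraries numbered 1242, and 1783 genes below had that level in the wildtype mean. Those among the 15 with the widest gaps in each direction are plotted by library. All 30 had a limma adjusted p between 0.487 and 0.747.

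**Figure D1:**
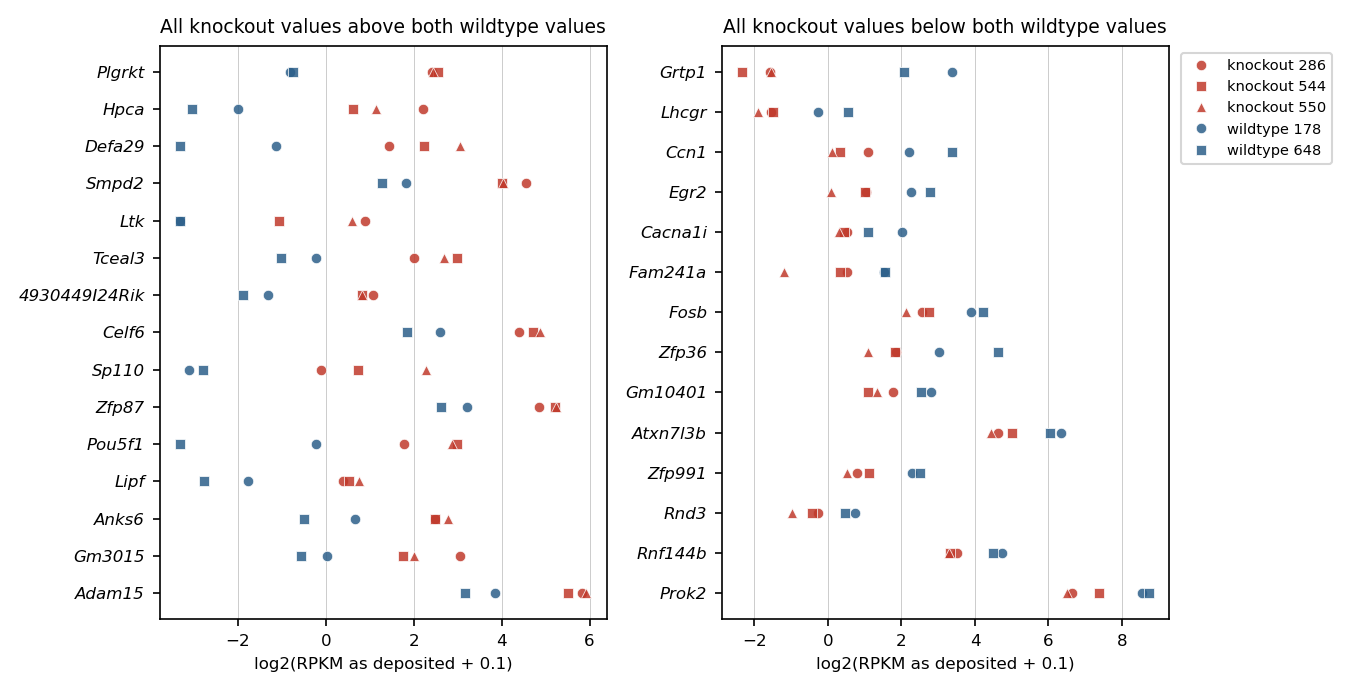
Each row is a protein-coding gene among the 15 with the widest gap above (left) or below (right), and each symbol is 1 library on a log2(RPKM as deposited + 0.1) axis, red for knockout and blue for wildtype. No red symbol overlaps the blue symbols of its row, from *Plgrkt* with a gap of 2.33 to *Adam15* with 1.54 on the left and from *Grtp1* with -4.21 to *Prok2* with -1.20 on the right.

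*Plgrkt*, a plasminogen receptor of the cell surface on chromosome 19, stood at 5.24, 5.77 and 5.33 RPKM in knockout 286, 544 and 550 and at 0.464 and 0.496 RPKM in wildtype 178 and 648. Its highest transcript had 17, 29 and 14 reads in knockout and 2 and 2 in wildtype. The close values within each group therefore rest on few reads. The difference was 2.84 (SE 0.50, limma adjusted p = 0.747). In the primary spermatocytes *Plgrkt* again lay above, with 8.56, 3.89 and 2.10 RPKM in knockout 544, 550 and 614 against 1.02 and 1.72 RPKM. In the spermatids the order was mixed, with 1.24 and 1.04 RPKM in knockout 286 and 544 against 2.71, 2.64 and 0.082 RPKM in wildtype 178, 351 and 648.

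*Smpd2*, a neutral sphingomyelinase that cleaves the membrane lipid sphingomyelin, stood at 23.2, 15.9 and 16.3 RPKM in the knockout libraries and 3.43 and 2.33 RPKM in the wildtype libraries (difference 2.43). It was the only one of the 30 genes to lie above in primary spermatocytes, spermatids and whole testis as well. Its primary spermatocytes held 9.22, 4.02 and 16.0 RPKM in knockout 544, 550 and 614 and 1.55 and 0.28 RPKM in wildtype 178 and 648. Its spermatids held 26.5 and 25.6 RPKM in knockout 286 and 544 against 13.0, 15.7 and 5.12 RPKM. Whole testes of 5 knockout mice ran from 12.4 to 24.0 RPKM, above the 8.58 and 2.36 RPKM of the 2 wildtype testes. These stages were in part taken from the same mice, so they do not repeat the comparison in new animals. In spermatogonia the groups overlapped, with 25.4 and 33.0 RPKM in knockout and 27.1 and 18.3 RPKM in wildtype.

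*Adam15*, a membrane-bound disintegrin and metalloprotease, had the highest level of the 15 genes above with the widest gaps, with 56.4, 45.3 and 60.5 RPKM in knockout and 14.2 and 8.85 RPKM in wildtype (difference 2.14, SE 0.40). *Celf6*, an RNA-binding splicing regulator, stood at 21.0, 26.1 and 29.1 RPKM against 5.91 and 3.49 RPKM. *Anks6*, an ankyrin-repeat protein of the primary cilium, stood at 5.49, 5.51 and 6.76 RPKM against 1.49 and 0.612 RPKM. All 3 genes were also above in spermatids, where *Adam15* reached 66.1 and 82.8 RPKM in knockout 286 and 544 against 54.1, 54.1 and 20.2 RPKM in wildtype 178, 351 and 648.

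*Hpca*, which encodes the calcium sensor hippocalcin of neurons, stood at 4.52, 1.43 and 2.12 RPKM in knockout and 0.149 and 0.021 RPKM in wildtype. *Pou5f1*, the pluripotency factor OCT4 of stem cells and early germ cells, stood at 3.35, 7.82 and 7.24 RPKM in knockout, at 0.75 RPKM in wildtype 178 and at 0 in wildtype 648. *Ltk*, a receptor tyrosine kinase, stood at 1.76, 0.376 and 1.40 RPKM in knockout and was listed at 0 in both wildtype libraries. These low-level genes were near the bottom of the measured range in wildtype. *Pou5f1* did not keep this order elsewhere. In spermatids the groups overlapped, with 0 and 10.4 RPKM in knockout 286 and 544 and 7.11, 10.8 and 0 RPKM in wildtype 178, 351 and 648.

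Some of the genes above share much of their sequence with other genes, and their values are uncertain. *Gm3015* has all of its 31-base words in other genes, *4930449I24Rik* 83.5%, the alpha-defensin gene *Defa29* 72.2%, the zinc-finger gene *Zfp87* 58.4%, *Tceal3* 32.1% and *Sp110* 20.4%. *Zfp87* stood at 28.8, 36.8 and 37.4 RPKM in knockout and 9.15 and 6.00 RPKM in wildtype. *Defa29*, an antimicrobial peptide gene known from the gut, stood at 2.62, 4.56 and 8.22 RPKM in knockout, at 0.354 RPKM in wildtype 178 and at 0 in wildtype 648. The remaining gene above, *Lipf*, encodes gastric lipase and held 1.21, 1.34 and 1.59 RPKM against 0.191 and 0.046 RPKM.

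*Grtp1*, which encodes a TBC-domain protein of the family that acts on Rab GTPases, had the widest gap of the 30 genes. It lies at chr8:13172022-13200620 (GRCm38), 2.69 Mb from *Csmd1* on the same chromosome. It held 0.237, 0.098 and 0.240 RPKM in knockout 286, 544 and 550 and 10.2 and 4.08 RPKM in wildtype 178 and 648. In reads the level was 14, 6 and 14 against 718 and 320. The nearest values lay 18.5-fold apart, and the difference was -4.98 (SE 0.58, limma adjusted p = 0.487, with 0.163 to 0.998 over the alternatives). Knockout 286 was 5.04 lower than wildtype 178 on the log2 scale, so the size was the same between the 2 libraries that lack the same transcripts. None of its 31-base words is found in another gene.

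The low level of *Grtp1* was seen in every library of mice 286, 544 and 550, at 0.031 to 0.644 RPKM across stages. Spermatogonia of wildtype 648 were about as low, at 0.706 RPKM beside 0.644 and 0.574 RPKM in knockout 286 and 544, while those of wildtype 178 held 2.46 RPKM. *Grtp1* also lay at 0.113 to 0.55 RPKM in the whole testes of the 5 knockout mice, against 3.71 and 4.11 RPKM in the 2 wildtype testes. The libraries labelled knockout from mice 613 and 614 did not share it, since their primary spermatocytes held 15.8 and 13.7 RPKM, beside 20 and 5.01 RPKM in wildtype 178 and 648. The genotype and *Grtp1* therefore did not go together in every mouse of the series. The strain of origin of the DNA around *Csmd1* in each mouse is not given in the sources used here, and the *Csmd1* genotype and linked strain differences cannot be told apart.

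Within 10 Mb of *Csmd1*, 187 genes were tested, of which 15 (8.02%) were above and 38 (20.3%) below. Over all genes 9.85% were above and 13.1% below. The median difference was -0.12 in this window, beside -0.04 over all genes. On the values as deposited the counts in the window were 20 above and 22 below, where 16.4% of all genes were above and 8.08% below. The median was then 0.12, beside 0.27 over all genes. Apart from *Grtp1* and *Defa29*, the widest gaps in this window were at low level. *Gm15352* held 0.082, 0 and 0.083 RPKM in knockout against 0.999 and 0.24 RPKM. *Tpte*, a testis phosphatase-related membrane protein gene, held 5.78, 5.18 and 6.37 RPKM against 3.06 and 1.79 RPKM, and was above. *Adam32*, the most abundant gene of the window, did not separate the groups, with 3100, 3840 and 3340 RPKM in knockout and 2910 and 6170 RPKM in wildtype.

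*Gm8730*, a processed pseudogene of a ribosomal protein gene at chr8:102864845-102865798, had the smallest adjusted p of all genes (0.202 by limma, 0.0448 to 0.998 over the alternatives) and was picked out after its values were seen. It held 0.041, 0.12 and 0.125 RPKM in knockout 286, 544 and 550 and 35.6 and 9.02 RPKM in wildtype 178 and 648, or 2, 5 and 5 reads against 1888 and 531. The difference was -6.98 (SE 0.65). Of its 31-base words, 88.3% occur in other genes and 62.8% in *Rplp0*, the ribosomal stalk protein gene, so reads of the pair may be split between them. *Rplp0* held 253, 549 and 385 RPKM against 234 and 158 RPKM, and the sum of both genes overlapped between the groups (254, 549 and 385 RPKM against 270 and 167 RPKM). In the other mice *Gm8730* did not follow the label: 0.54 RPKM in knockout 614, but 27.1 RPKM in knockout 613, and 40.7 and 106 RPKM in the whole testes of knockout 273 and 308.

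**Figure D2:**
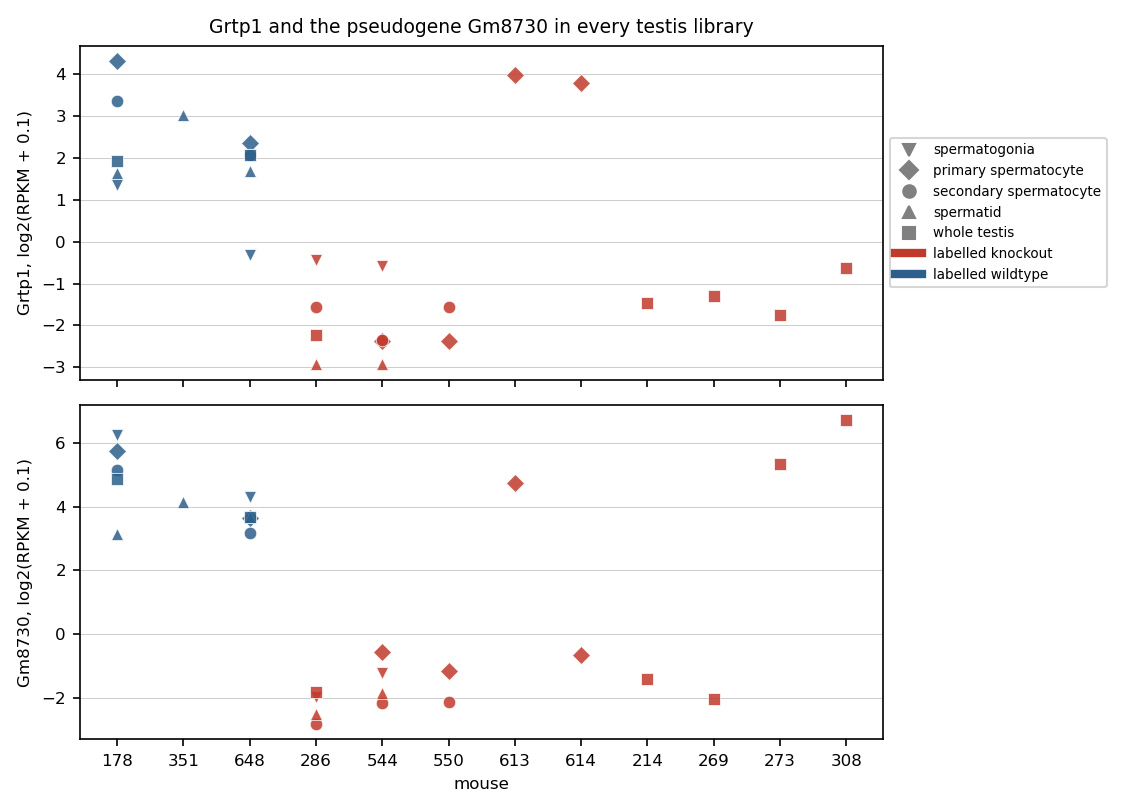
*Grtp1* (top) and *Gm8730* (bottom) in every testis library by mouse, on log2(RPKM + 0.1) axes, with red for libraries labelled knockout, blue for wildtype and the symbol for the stage. Mice 286, 544 and 550 are low for both genes in every stage, whereas mice 613 and 614 are high for *Grtp1* at 15.8 and 13.7 RPKM.

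The other genes below with wide gaps included receptors and signalling genes at low level and a group of growth-factor response genes. *Cacna1i*, a T-type calcium channel subunit, held 1.34, 1.25 and 1.13 RPKM against 3.97 and 2.03 RPKM. *Rnd3*, an atypical small GTPase, held 0.722, 0.642 and 0.407 RPKM against 1.57 and 1.28 RPKM. Both genes stayed under 4 RPKM in the 5 libraries. The 3 further genes, the uncharacterised *Fam241a* and *Gm10401* and the zinc-finger gene *Zfp991*, lay between 0.336 and 3.32 RPKM in knockout and between 2.80 and 6.87 RPKM in wildtype, and 31.4% of the 31-base words of *Zfp991* occur in other genes.

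Among abundant genes, *Prok2*, a secreted prokineticin that signals through G-protein coupled receptors, held 99.6, 165 and 89.9 RPKM in knockout and 374 and 422 RPKM in wildtype (difference -1.65, SE 0.34). *Atxn7l3b*, a relative of a subunit of the histone deubiquitination module, held 24.7, 31.9 and 21.7 RPKM against 81.3 and 65.5 RPKM (difference -1.52, SE 0.35). *Rnf144b*, an E3 ubiquitin ligase, held 11.3, 9.93 and 9.77 RPKM against 26.3 and 22.5 RPKM. All 3 were more abundant in primary spermatocytes than in spermatids of wildtype mice 178 and 648: *Prok2* held 624 and 771 RPKM in primary spermatocytes and 61.3 and 233 RPKM in spermatids. In primary spermatocytes *Prok2* also lay below, at 430, 492 and 227 RPKM in knockout 544, 550 and 614, while in spermatids the order was mixed.

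Of the 15 genes above, 7 were also above in primary spermatocytes, 6 in spermatids and 1 in whole testis. The primary spermatocytes of knockout 613 were left out of these orders. Of the 15 below, 6 were also below in primary spermatocytes, 3 in spermatids and 1 in whole testis. The shares of all genes in these orders are not given here, and the stages share mice. These counts therefore do not measure how far the order recurs. The test of a different genotype effect between secondary and primary spermatocytes, a limma interaction over 18997 genes in 20 sorted libraries, called 0 genes at an adjusted p of 0.05 and 278 at an unadjusted p under 0.05. Against spermatids it called 0 and 166. Since the stages share mice, the mouse was also fitted as a replicate block, which called 0 against either stage, with 770 and 342 at an unadjusted p under 0.05 and a smallest adjusted p of 0.119 against primary spermatocytes.

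Immediate-early genes, which are switched on within minutes of growth factor or stress signals and encode mostly transcription factors of the AP-1 and EGR families and feedback inhibitors, were lower in the knockout libraries. Of 16 listed, 11 (68.8%) were below and 0 above, against 13.1% below over all genes, and the median difference was -1.52. None passed an adjusted p of 0.05, and 9 were lower at an unadjusted p under 0.05 (2.71% of all genes).

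*Fosb*, a subunit of AP-1, held 5.80, 6.56 and 4.26 RPKM in knockout 286, 544 and 550 and 14.7 and 18.5 RPKM in wildtype 178 and 648 (difference -1.73, SE 0.43). *Zfp36*, whose product tristetraprolin speeds the decay of AU-rich mRNAs, held 3.48, 3.44 and 2.03 RPKM against 7.97 and 24.4 RPKM (difference -2.38, SE 0.61). *Dusp1*, a phosphatase that switches off MAP kinases, held 4.53, 6.98 and 3.41 RPKM against 12.7 and 14.2 RPKM (difference -1.66, SE 0.46). In each of these 3 genes all knockout libraries were lower than both wildtype libraries, and for *Fosb* the gap of 1.28 was wider than the spread within either group.

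*Egr1*, the most abundant gene of the list, held 33.8, 17.9 and 9.16 RPKM in knockout, 33.9 RPKM in wildtype 178 and 238 RPKM in wildtype 648. Knockout 286 and wildtype 178 were level, and wildtype 648 was far above the other 4 libraries (difference -2.23). The summed level of the list was 118, 140 and 108 RPKM in knockout and 163 and 466 RPKM in wildtype. Without wildtype 648 the median difference of the list was -0.90, and knockout 286 against wildtype 178 gave -0.89. *Klf4*, a zinc-finger transcription factor and the only member with a positive difference (0.13), is the exception, and *Jund*, *Ier2* and *Junb* were below after quantile normalisation but overlapped as deposited.

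2 early-response genes outside the list were among the 15 widest gaps. *Egr2*, an EGR-family transcription factor, held 1.94, 1.92 and 0.964 RPKM against 4.67 and 6.69 RPKM. *Ccn1*, a secreted matrix protein induced by growth factors, held 2.01, 1.16 and 0.974 RPKM against 4.50 and 10.2 RPKM (difference -2.53, SE 0.61). In primary spermatocytes *Egr1* overlapped, at 3.91, 3.94 and 13.6 RPKM in knockout 544, 550 and 614 against 3.76 and 35.9 RPKM in wildtype. *Zfp36* and *Egr2* were below in no other stage compared, and *Fosb* only in spermatids. In whole testis *Egr1* reached 318 RPKM in knockout 308, against 16.3 and 126 RPKM in wildtype 178 and 648.

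**Figure D3:**
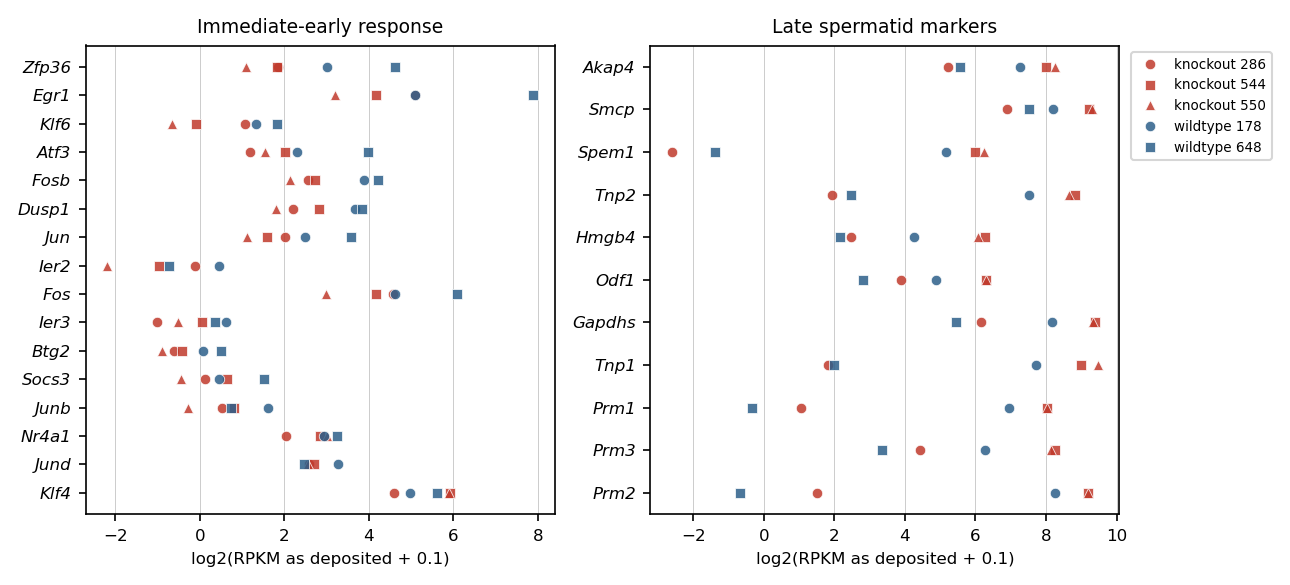
Each row is a gene of the immediate-early list (left) or of the late spermatid list (right), and each symbol is 1 library on a log2(RPKM as deposited + 0.1) axis, red for knockout and blue for wildtype. On the left 11 of 16 genes have all knockout libraries lowest after quantile normalisation, and on the right wildtype 178 stands with knockout 544 and 550 while knockout 286 and wildtype 648 are low.

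Immediate-early promoters are known for the cAMP response element, which binds CREB-family factors, and for the CArG box, which binds serum response factor. These elements were looked for in RefSeq promoters (GRCm38.p6) of 14 of the 16 genes, and 3 genes held one. The sequences are the 250 bases before the start of each gene, on its own minus strand, 5′ to 3′, with the element in capitals. *Btg2* (chr1:134079156-134079405) and *Dusp1* (chr17:26508473-26508722) hold the cAMP response element TGACGTCA, which reads the same on both strands, 166 and 143 bases before the start. *Zfp36* (chr7:28379229-28379478) holds a CArG box 58 bases before it.
Btg2: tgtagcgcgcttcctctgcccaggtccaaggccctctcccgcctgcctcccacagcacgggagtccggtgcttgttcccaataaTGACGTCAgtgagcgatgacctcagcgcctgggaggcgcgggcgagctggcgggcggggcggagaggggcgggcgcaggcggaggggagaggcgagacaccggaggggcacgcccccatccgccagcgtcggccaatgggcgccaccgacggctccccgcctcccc
Dusp1: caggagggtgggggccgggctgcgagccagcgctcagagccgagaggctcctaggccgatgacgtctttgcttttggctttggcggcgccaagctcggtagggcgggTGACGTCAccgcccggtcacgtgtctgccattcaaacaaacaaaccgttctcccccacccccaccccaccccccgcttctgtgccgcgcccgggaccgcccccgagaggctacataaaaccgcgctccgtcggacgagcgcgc
Zfp36: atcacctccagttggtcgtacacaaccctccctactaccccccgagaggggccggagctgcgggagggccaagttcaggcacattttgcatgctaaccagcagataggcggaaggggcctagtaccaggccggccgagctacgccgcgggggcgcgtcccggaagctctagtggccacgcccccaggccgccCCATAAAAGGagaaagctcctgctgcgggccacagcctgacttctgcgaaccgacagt
In windows that also take in the bases after the start, 1.79% of all 32851 promoters hold TGACGTCA and 1.63% a CArG box on either strand. A match is a description of letters and not a measured site. *Btg2*, an antiproliferative gene named here for its promoter after its values were seen, held 0.558, 0.642 and 0.434 RPKM against 0.951 and 1.32 RPKM.

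Genes of the meiotic divisions leaned lower in knockout. All 15 had a negative difference, with a median of -0.49. Of these, 5 (33.3%) were below, beside 13.1% of all genes, and 0 were above. *Aurkb*, the kinase of the chromosomal passenger complex, held 22.1, 19 and 20 RPKM in knockout and 49.5 and 48.5 RPKM in wildtype (difference -1.31, SE 0.37). *Cdk1*, the kinase that drives entry into division, held 31.3, 22.8 and 20.5 RPKM against 49.3 and 64.9 RPKM. *Bub1b*, of the spindle checkpoint, held 20.5, 25.4 and 18.6 RPKM against 32.7 and 34.4 RPKM. For *Aurkb* the distance between the groups was wider than the range within either. The median of the list was -0.58 as deposited and lay between -0.79 and -0.45 with 1 library left out. The most abundant gene, *Aurka*, held 471, 371 and 325 RPKM against 525 and 945 RPKM, and its groups overlapped after quantile normalisation. In primary spermatocytes *Aurkb* overlapped between groups, from 12.2 to 61.9 RPKM in knockout beside 60.1 and 45.6 RPKM in wildtype.

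Meiotic prophase genes gave a median of -0.71, with 3 of 13 below (23.1%, beside 13.1% of all genes). *Mlh3*, a crossover protein, held 8.15, 12.1 and 6.13 RPKM in knockout, 15.5 RPKM in wildtype 178 and 113 RPKM in wildtype 648. *Hormad1*, a protein of unsynapsed chromosome axes, held 75.2, 60.9 and 23.2 RPKM, against 97.4 and 326 RPKM. *Sycp3*, of the synaptonemal complex, held 203, 225 and 89.4 RPKM in knockout, 175 RPKM in wildtype 178 and 888 RPKM in wildtype 648. Wildtype 648 was the highest library for each of these genes, and without it the median of the list was -0.18.

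Late spermatid genes, the protamines, transition proteins and tail proteins, varied widely within each genotype. Their summed level was 280, 3870 and 4050 RPKM in knockout 286, 544 and 550 and 1720 and 307 RPKM in wildtype 178 and 648. *Prm1*, a protamine that packs sperm DNA, held 1.99, 261 and 259 RPKM in knockout and 124 and 0.691 RPKM in wildtype. *Tnp1*, a transition protein, held 3.40, 512 and 714 RPKM against 211 and 3.84 RPKM. Each group thus held a library with little and at least 1 with much of these transcripts. All 11 had a positive difference, with a median of 1.46, but 0 were above. The median was 3.31 without knockout 286, 3.33 without wildtype 178 and -0.12 without wildtype 648, and knockout 286 against wildtype 178 gave -1.98.

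The same mice were low elsewhere. Spermatids of wildtype 648 and knockout 286 held 866 and 879 RPKM of the late spermatid genes, against 10900, 10500 and 12300 RPKM in wildtype 178, wildtype 351 and knockout 544. Whole testes of wildtype 648 and knockout 286 held 225 and 81.8 RPKM, against 7980 RPKM in wildtype 178. In bulk libraries, fewer cells of a type and less RNA per cell cannot be told apart.

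Round spermatid genes, which serve the acrosome, sperm kinases and the CATSPER channel, gave a median of 1.40 with 15 of 16 differences positive, 1 above and 0 below. *Catsper4*, a subunit of the sperm calcium channel, was that gene, with 88.9, 183 and 189 RPKM in knockout and 58.2 and 10.7 RPKM in wildtype. The median was 0.43 without wildtype 648, and knockout 286 against wildtype 178 gave -0.69. *Slxl1*, an X-linked multicopy gene of spermatids, was the only 1 of 7 sex-linked spermatid genes above (3 were as deposited), with 7.71, 6.06 and 5.38 RPKM against 1.92 and 2.78 RPKM. The axoneme list had 2 of 19 above and 2 below (median -0.15), but 1 above and 6 below as deposited (median -0.29) and 0 above and 9 below with libraries shifted to a common median (-0.83). Over all genes 16.4% were above and 8.08% below as deposited, and 6.66% above and 21.4% below on the shifted values. The sperm glycolysis list had 0 of 10 either way (median 0.49, and -0.08 on the shifted values). *Tekt2*, a tektin of flagellar microtubules, was above with 644, 900 and 1080 RPKM against 425 and 744 RPKM as deposited, where the groups overlapped.

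The stage at which these genes are abundant was taken from the other sorted libraries. In both wildtype mice 178 and 648, 31.8% of all tested genes were higher in primary spermatocytes than in spermatids, and 31.8% were lower. Of the 2279 genes above, 58.0% were higher in spermatids of both mice and 12.1% in primary spermatocytes. Of the 3039 genes below, 10.2% were higher in spermatids and 57.2% in primary spermatocytes. Knockout mouse 544 gave the same order. In its spermatids 66.2% of the genes above were higher, beside 42.6% of all genes tested. In its primary spermatocytes 72% of the genes below were higher, beside 51.3% of all genes tested. These stage values come from other libraries, but from mice that are in the comparison.

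Among the 3474 genes at least 1 log2 higher in spermatids of both wildtype mice, 23.5% were above and 1.73% below (median 0.62). Among the 2112 genes at least 1 log2 higher in primary spermatocytes, 2.84% were above and 23.5% below (median -0.30). Among the 3286 genes whose stages differed by under 0.5, 7.97% were above and 10.5% below. The part that the stage make-up of each library has in the order calls was not tested gene by gene. With the late spermatid level as a covariate, limma again called 0 genes, with 1067 higher and 776 lower at an unadjusted p under 0.05. The medians were then 0.59 for the round spermatid genes (1.40 without the covariate) and -0.47 for the meiotic prophase genes (-0.71 without it). They were -1.34 for the immediate-early (-1.52 without it), -0.44 for the meiotic division (-0.49) and -0.13 for the late spermatid genes (1.46). The covariate is the summed level of these same late spermatid genes, so the change in their own median follows from the fit and tests nothing.

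**Figure D4:**
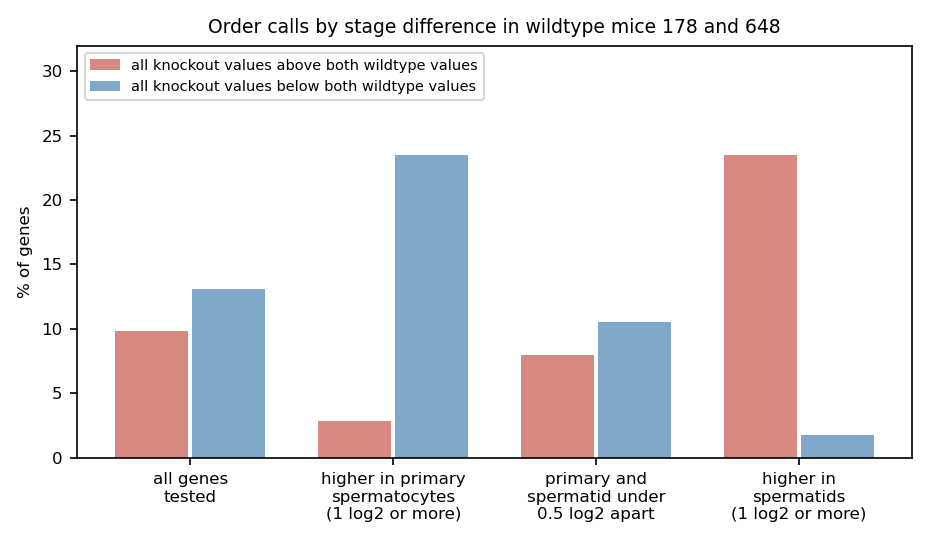
Bars give the percent of genes called above (red) and below (blue), for all genes tested and for genes grouped by the difference between primary spermatocytes and spermatids in wildtype mice 178 and 648. Among spermatid-high genes 23.5% are above and among primary-high genes 23.5% are below, beside 9.85% and 13.1% of all genes.

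Markers of somatic cells were present in every library. Leydig cell genes, which make testosterone, had 4 of 9 below (44.4%) and 0 above, beside 13.1% below over all genes. All 9 differences were negative, with a median of -1.47. *Lhcgr*, the luteinising hormone receptor, held 0.243, 0.252 and 0.167 RPKM in knockout and 0.733 and 1.35 RPKM in wildtype. *Cyp17a1*, a steroidogenic enzyme, held 3.51, 14.1 and 3.73 RPKM against 25 and 18.9 RPKM. *Star*, which carries cholesterol into mitochondria, held 0.589, 0.501 and 0.362 RPKM against 0.961 and 1.46 RPKM. The summed level overlapped, with 23.9, 77.9 and 20.5 RPKM in knockout and 90.7 and 51.5 RPKM in wildtype, and *Insl3*, a peptide hormone, was highest in knockout 544 (46.4 RPKM). No member was at 0 in any library, and the median stayed between -2.03 and -1.03 with 1 library left out.

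Sertoli cell markers overlapped between the groups, with 0 of 11 above or below and a median of -0.46. Their summed level was 866, 283 and 123 RPKM in knockout and 528 and 295 RPKM in wildtype, most of it *Clu*, the chaperone clusterin. Peritubular and stromal markers summed to 217, 98.1 and 67.3 RPKM against 94.6 and 223 RPKM, with 1 of 12 below, and 1 above in its place as deposited. Spermatogonia markers summed to 112, 51.8 and 33.0 RPKM against 40.0 and 40.8 RPKM, with 1 of 12 above (median 0.08, and -0.21 with libraries shifted to a common median). Knockout 286 was the highest library for Sertoli and spermatogonia markers.

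Macrophage markers had 4 of 13 below (30.8%, beside 13.1% of all genes). They summed to 30.6, 16.7 and 15.6 RPKM in knockout and 33.1 and 17.2 RPKM in wildtype. *Fcer1g*, an immune receptor adaptor, held 3.01, 2.67 and 1.31 RPKM against 6.36 and 2.65 RPKM and overlapped as deposited. On the values as deposited 0 macrophage markers were below and the median was -0.12, so these calls rest on the scaling. Endothelial markers had 0 of 7 above or below (median 0.28), erythrocyte markers 0 of 5 (median -0.53, and 0.02 as deposited) and epididymal markers 0 of 5 (median 1.18). Lymphocyte markers had 1 of 4 above. The part of these cells in the order calls was not tested.

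**Figure D5:**
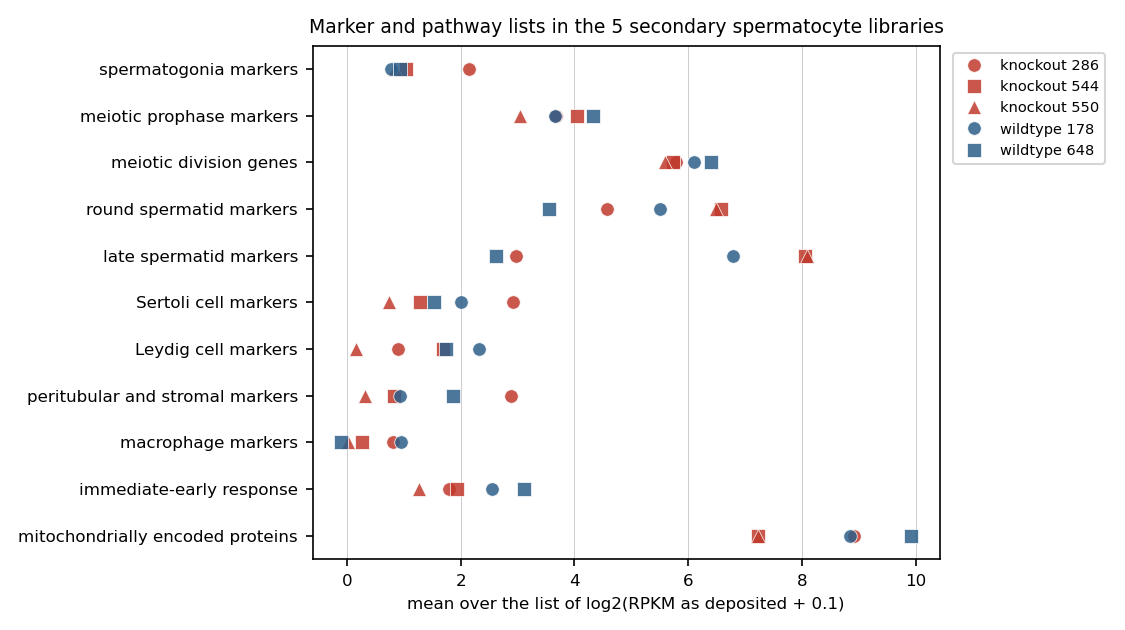
Each row is a marker or pathway list and each symbol is 1 library, placed at the mean of log2(RPKM as deposited + 0.1) over the list, red for knockout and blue for wildtype. Of the lists plotted, the genotypes do not overlap for the immediate-early, meiotic division and Leydig lists (Leydig by 1.70 against 1.74), and knockout 286 and wildtype 648 are the lowest libraries for the late spermatid list.

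Complement genes, the system that CSMD1 is held to regulate, had 2 of 31 members above (6.45%) and 5 below (16.1%), with a median of -0.07. These shares were near the 9.85% and 13.1% of all genes. As deposited 4 were above and 2 below (median 0.30), where 16.4% of all genes were above and 8.08% below. *Itgam*, a subunit of complement receptor 3 on myeloid cells, held 1.72, 1.52 and 1.21 RPKM in knockout and 0.518 and 0.437 RPKM in wildtype. *Cd59b*, an inhibitor of the membrane attack complex expressed in mouse germ cells, held 15.1, 22.4 and 23.2 RPKM against 9.70 and 8.37 RPKM. *Cd55*, an inhibitor of the convertases, held 13.9, 17.0 and 15.9 RPKM against 21.5 and 21.7 RPKM, and so lay below. *Cd59b* and *Cd55*, which are 2 of the membrane inhibitors in the list and were named for their gaps, therefore stood on opposite sides of the order.

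Interferon and antigen presentation genes had 2 of 17 below (median -0.01, and 0.31 as deposited with 1 above and 1 below), of which *B2m*, the light chain of MHC class I, held 9.26, 8.11 and 3.13 RPKM against 13.9 and 28.5 RPKM. Heat shock genes had 6 of 15 below (40.0%, beside 13.1% of all genes) and 0 above, with a median of -0.29. *Hsp90aa1*, a testis-rich HSP90, held 4860, 4790 and 3330 RPKM against 6490 and 9500 RPKM. As deposited the heat shock list had 3 below and 1 above. The unfolded protein response list had 4 of 13 below (30.8%), with a median of 0.12, and -0.46 with libraries shifted to a common median. Its member *Ddit3* held 130, 123 and 116 RPKM against 175 and 214 RPKM. Apoptosis and p53 targets had 5 of 19 below (26.3%, median -0.28), and 2 as deposited (median 0.02). Cholesterol synthesis had 1 of 15 each way (median -0.10, and 0.02 as deposited).

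Mitochondrially encoded genes, the 13 subunits of the respiratory chain made inside mitochondria, all had a negative difference, with a median of -1.37, but only 1 was below (5 as deposited). Their summed level was 12900, 5030 and 5520 RPKM in knockout 286, 544 and 550 and 13200 and 29800 RPKM in wildtype 178 and 648. Knockout 286 was level with wildtype 178, from which it differed by 0.38 in the median. Without knockout 286 the median was -2.11. Cytoplasmic ribosomal protein genes had 3 of 84 above (3.57%) and 11 below (13.1%), with a median of -0.05, beside 9.85% and 13.1% of all genes. Libraries shifted to a common median gave 0 above and 30 below, where 6.66% of all genes were above and 21.4% below. Replication-dependent histones had 1 of 53 above and 7 below (median -0.36), and 4 above and 3 below as deposited (median 0.11).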

How the data were processed

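Testis cells were sorted by Hoechst staining and polyadenylated RNA was sequenced as paired reads. The authors mapped reads with TopHat2 to Ensembl transcripts and deposited RPKM values for 94480 transcripts. RPKM times length fell on whole reads for 93.2 to 93.8% of low values (tolerance 0.06, 12% by chance), which gives the depths and shows that no further normalization was applied in the 5 libraries. No counts are used here and no count model was fitted. The strand of the libraries is not given in the sources used here, so overlapping genes cannot be told apart.

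Transcripts with a value in all 5 libraries (89664 of 90432 that match the GENCODE vM21 annotation) were summed by gene. Gene sums were quantile-normalised and log2-transformed with a pseudocount of 0.1 RPKM, and genes with a mean of at least 0.1 RPKM were tested. limma 3.58.1 (lmFit, eBayes with a trend) in R 4.3.3 was used with Benjamini-Hochberg adjustment, and fold changes are on the log2(RPKM + 0.1) scale, which understates those of low genes. The fit was tested on simulated data. The PEER adjustment and PoissonSeq test named in the study's methods were not run.

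Each library is 1 mouse, and p-values measure the spread between these libraries. Genes named are the 15 protein-coding genes with the widest gap in each direction at a mean of at least 1 RPKM in the higher group, the highest and the up to 3 widest-gap members of each list, genes within 10 Mb of *Csmd1*, and others said to be chosen after their values were seen. Further members of the lists are given by their known role. The comparison, the lists and the named genes were chosen with earlier results of these data known. 7 listed symbols had no match. 1 of the 15 genes below is counted but not reported here. No mouse has both genotypes, so mice pair only stages: a block on the mouse was fitted in the 20 sorted libraries, and the labels give the pairing (consensus correlation 0.394). Sequences are from RefSeq. Alternatives were other pseudocounts, filters, scalings, transcript choices, fits and each library left out. Tables and figures were made with Python 3.11.15, numpy 2.4.6, pandas 2.3.3 and matplotlib 3.10.9.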

Additional observations from a re-analysis of the deposited data

Results flagged for a closer look

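*Ccn1*, a secreted matrix protein, is below in secondary spermatocytes (difference -2.53) and has the opposite order in spermatids, where it held 1.30 and 1.20 RPKM in knockout 286 and 544 and 0.75, 0.414 and 0.545 RPKM in wildtype 178, 351 and 648. Every library of each stage lies on its own side. The order of the libraries was not tested as such. The limma interaction between the stages was -3.57 with an adjusted p of 1.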

How the results depend on the processing

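Over the alternatives, 521 of 522 values of the 30 widest-gap genes and *Gm8730* kept their order and 0 reversed, and *Cacna1i* overlapped (-0.67) where the highest transcript replaced the sum. These genes were picked for their wide gap or small adjusted p, and leaving a library out can hardly undo an order. That count was therefore largely fixed by the choice of genes and tests nothing. Of the list members named by their gap, 16 overlapped on deposited values, among them *Tekt2*, *Cd68*, *Fcer1g*, *Lyz2*, *Masp2* and *Cdkn1a*. Of 458 list medians, 422 moved by less than the standard error of a member and 36 by more. That is the error of 1 gene and not of a median, and it can be wide (2.98 for *Prm2*). The count is therefore a lenient one and does not show that the lists are stable. The counts above and below moved most with scale and with libraries left out. At a mean of 1 RPKM they were 1407 and 1967 of 14097 genes, on deposited values 3797 and 1869, and with libraries shifted to a common median 1540 and 4945, where limma called 1 gene lower (*Gm8730*, adjusted p = 0.0448). The median of all genes was 0.27 on deposited and -0.27 on shifted values, against -0.04. Order calls over fewer libraries are easier to meet. With 1 library left out, 3022 to 6585 genes were above and 3624 to 7813 below, with 6585 and 7813 without wildtype 178, 5424 and 6286 without knockout 286 and 4609 and 5970 without wildtype 648, and limma called 0 each time. Of the alternatives chosen after the data were seen, the late spermatid covariate left 0 called, genes under 0.5 apart between stages gave 262 and 344, and genes at 1 RPKM or more in all 5 libraries gave 998 and 1735. In 20 libraries of all stages, 1897 were above and 2494 below of 18997 and limma called 0, with 333 higher and 197 lower at an unadjusted p under 0.05. With the mouse as a replicate block it called 0, with 321 and 195, and changed no call. Missing transcripts counted as 0 changed no gene. Depth limits the low genes: 1 read on 2000 nt is 0.01109 RPKM in knockout 286.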

Other observations

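Chromosome X held 923 tested genes, of which 9.21% were above and 4.12% below, against 9.85% and 13.1% over all genes, with a median difference of -0.06. Of 37 tested genes of the mitochondrial chromosome, 0 were above and 9 (24.3%) below, with a median of -1.39. Of 16999 protein-coding genes, 9.75% were above and 13.1% below.

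Late spermatid genes summed to 16400 RPKM in the library labelled spermatogonia of knockout 544, more than in the spermatids of the same mouse (12300 RPKM), and to 13.5 and 15.7 RPKM in the spermatogonia of knockout 286 and wildtype 648.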
